A study of Mus musculus with 12 samples.

Results

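Wnt and R-spondin signals set the metabolic zones of the liver lobule, and 10 genes of that pathway were examined here in mouse hepatocytes that differed in lipid content. The genes were chosen by name and sorted by role. Rspo3, Wnt2 and Wnt9b encode secreted ligands made by non-parenchymal cells. Lgr4, Lgr5, Znrf3 and Rnf43 encode cell surface receptors and ubiquitin ligases. Axin2, Tbx3 and Sp5 are transcriptional targets of the pathway. They are 10 of the 52636 genes in the deposited table, and all 10 were among the 16563 genes that passed a filter on low values, at least 10 reads per 20 M (20000000) in at least 3 libraries.

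The libraries came from polyadenylated liver RNA of 6 mice with steatotic livers, 3 wild type (WT) and 3 knockout for PTPRK, a receptor protein tyrosine phosphatase. A Percoll gradient with differential centrifugation split the hepatocytes of every mouse by lipid content, which makes 4 groups of 3 libraries, a low-fat and a high-fat group for WT and the same pair for KO. "Low fat" and "high fat" therefore name fractions of 1 liver, and both fractions of a mouse carry the same replicate number (mouse 1 to 3 of each genotype). Replicates are different mice. The strain, age, sex and diet of the animals, and whether the Ptprk deletion was restricted to a cell type, are not given in the sources used here.

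In the liver lobule, endothelial cells around the central vein release Wnt2, Wnt9b and R-spondin 3. Wnt proteins stabilise beta-catenin in nearby hepatocytes, which then transcribe pericentral genes through TCF/LEF factors. The ubiquitin ligases ZNRF3 and RNF43 remove Wnt receptors from the hepatocyte surface, and R-spondins bound to LGR4 or LGR5 clear these ligases and so raise the response to Wnt. Axin2 encodes a scaffold of the beta-catenin destruction complex and acts as negative feedback, Tbx3 encodes a T-box transcription factor, and Sp5 encodes an Sp-family zinc finger factor.

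Axin2 and Sp5 are textbook direct targets of beta-catenin, so the sequence just upstream of each start is shown, as the 2 target promoters with a RefSeq entry (GRCm38.p6), 250 bases 5′ to 3′ up to the transcription start. Sp5 lies at chr2:70474673-70474922 and Axin2 at chr11:108920099-108920348, both on the plus strand. Capitals mark the core letters of a TCF/LEF site, CTTTGA or CTTTGT, searched on both strands (TCAAAG and ACAAAG on the minus strand).
Sp5: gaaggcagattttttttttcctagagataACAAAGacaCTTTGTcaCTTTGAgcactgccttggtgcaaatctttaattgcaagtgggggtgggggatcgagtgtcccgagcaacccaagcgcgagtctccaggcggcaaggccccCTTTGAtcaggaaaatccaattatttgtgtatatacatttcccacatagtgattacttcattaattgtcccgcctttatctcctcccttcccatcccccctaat
Axin2: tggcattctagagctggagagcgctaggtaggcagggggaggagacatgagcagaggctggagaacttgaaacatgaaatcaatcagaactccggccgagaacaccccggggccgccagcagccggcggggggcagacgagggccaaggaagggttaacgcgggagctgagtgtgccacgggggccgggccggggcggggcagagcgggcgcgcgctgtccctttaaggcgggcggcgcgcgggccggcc
The Sp5 window held 4 matches, at 221 (minus strand), 212, 204 and 104 bases before the start, none overlapping another. The Axin2 window held no match, and neither did those of Lgr4, Wnt2, Wnt9b and Rnf43. Of all 32851 RefSeq mouse promoter windows of this length, 13.8% held CTTTGA, 16.5% held CTTTGT and 27.6% held either. A match is a run of letters, not a measured binding site.

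The values were gene read counts scaled by the authors to 20 M reads per library, and estimated depths were between 15.08 and 25.02 M reads. One library's floor of 3 reads stood between 2.398 and 3.978 reads per 20 M. Ptprk, the targeted gene, fell from 2788 ± 83.7 (SD, n = 3) in WT low-fat to 1271 ± 135 in KO low-fat libraries, and from 2407 ± 209 to 1200 ± 19.3 in high-fat libraries, so transcript remained at 45.6% and 49.9% of WT. The log2 fold changes were -1.13 (limma, adjusted p = 0.0013) and -0.99 (limma, adjusted p = 0.00502). Without mouse 1 of both genotypes these adjusted p values were 0.0526 and 0.0564, and the high-fat value was 0.402 when only the 6 libraries compared were fitted. The high-fat call was also lost without WT high-fat replicate 3 (0.0521) and without KO high-fat replicate 2 (0.0529). Summed levels of 10 hepatocyte markers lay between 838310 and 1023423 reads per 20 M in every library.

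Endothelial, stellate and Kupffer cell markers were present in the libraries and rose in the high-fat fraction. In the comparison of high-fat with low-fat libraries, averaged over both genotypes, 18 of 18 endothelial, 14 of 14 stellate and 9 of 11 Kupffer cell markers rose (limma, adjusted p under 0.05), with median log2 fold changes of 1.69, 2.54 and 2.26, and 0 of 10 hepatocyte markers were called (median -0.15, against -0.02 over all genes tested). Of all tested genes 5.77% were called. Without mouse 1 of both genotypes the calls were 17, 13 and 8, where 2.16% of tested genes were called. The summed endothelial markers were between 2016 and 4587 reads per 20 M in low-fat and between 7110 and 23108 in high-fat libraries, and all 18 were above 0 in all 12 libraries. By endothelial and Kupffer markers mouse 1 stood apart in both genotypes: its endothelial sum was 5.04-fold (WT) and 7.30-fold (KO) higher in the high-fat fraction, against 2.09-fold to 2.76-fold in the other 4 mice, and its Kupffer sum was 11.1-fold and 21.1-fold higher, against 1.79-fold to 3.55-fold. In bulk libraries, fewer cells of a type and less RNA per cell cannot be told apart. The stellate sum was 6.08-fold, 7.45-fold and 3.60-fold higher in WT mice 1 to 3 and 19.4-fold, 5.59-fold and 3.89-fold higher in KO mice 1 to 3, so by these markers WT mouse 1 did not stand apart. Cholangiocyte marker sums were lower in the high-fat fraction of 6 of 6 mice, with means of 438 in low-fat and 337 in high-fat WT libraries and of 440 and 324 in KO libraries. These sums were almost all Sox9 and Spp1 (means over all libraries 212 and 164 reads per 20 M), the 2 markers tested, and neither was called. Epcam, Krt19, Krt7 and Cldn4 averaged 3.67 or less, so the sums say little about cholangiocytes. Lymphocyte and mesothelial sums were at no more than 109 and 16 reads per 20 M in any library. Nuclear-retained RNAs, counted as a sign of RNA quality, ranged from 31759 to 166404. Between the fractions they rose from 67271 to 163767 in WT mouse 1 and from 49579 to 166404 in KO mouse 1. These 2 high-fat sums were the highest of all libraries. In WT mice 2 and 3 the sums went from 115322 to 115903 and from 31759 to 39310. In KO mice 2 and 3 the sums went from 134472 to 37266 and from 34389 to 37563. Whether RNA quality bears on the mouse 1 differences was not tested.

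Levels per kilobase of exon (GENCODE M21 gene models, GRCm38) put the receptors and targets far above the ligands. In WT low-fat libraries Lgr4 was highest at 377 ± 6.78 reads per 20 M per kilobase (SD, n = 3). Tbx3 (118 ± 70.0), Rnf43 (97.5 ± 41.4) and Znrf3 (69.0 ± 1.25) came next and did not differ beyond their spread. They were followed by Axin2 (33.7 ± 22.6), Sp5 (19.4 ± 8.58) and Lgr5 (10.9 ± 2.60), and neighbours among these also did not differ beyond their spread. Wnt2 stood at 3.55 ± 1.33, Rspo3 at 2.81 ± 0.49 and Wnt9b at 0.81 ± 0.46. In WT high-fat libraries the order of the low end changed, with Wnt2 at 27.9 ± 16.5, Lgr5 at 23.3 ± 8.77 and Rspo3 at 20.5 ± 6.18 reads per 20 M per kilobase, within each other's spread. Annotated genes overlap Rspo3, Rnf43, Lgr5, Axin2 and Tbx3, and how reads were assigned or whether strand was used is not given in the sources used here, so reads of such partners cannot be told apart from theirs.

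The ligands Rspo3 and Wnt2 rose most between the fractions. Of the 10 genes, 3 were called in the high-fat against low-fat comparison averaged over both genotypes, all upward: Rspo3, Wnt2 and Lgr5. Of all 16563 genes tested, 5.77% were called, 5.05% upward. A second count used the mice themselves: 7 of the 10 genes (Rspo3, Wnt2, Lgr5, Rnf43, Axin2, Tbx3 and Sp5) were higher in the high-fat fraction of 6 of 6 mice, where 9.96% of tested genes were. Lgr4 was lower in 6 of 6 mice, as 11.6% of tested genes were. Rspo3, Wnt2 and Wnt9b would not have passed the filter on low values without their high-fat libraries. Their calls and their part in counts between the fractions are therefore not independent of that filter. In the fit without the filter Rspo3 and Wnt2 were still called.

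Rspo3, the ligand of LGR4 and LGR5, stood at 10, 7 and 9 reads per 20 M in WT low-fat mice 1 to 3 and at 85, 56 and 49 in their high-fat fractions. In KO mice it was 2, 4 and 8 in low-fat and 34, 32 and 30 in high-fat libraries. The lowest high-fat library thus lay above the highest low-fat library in both genotypes, and the 6 mice differed 3.75-fold to 17-fold between their own fractions. The 17-fold is that of KO mouse 1, whose low-fat value of 2 lay below that library's floor of 3 reads (2.927), so it is uncertain. The mean change over both genotypes was 2.47 log2 units (SE 0.24; adjusted p = 0.00258, limma).

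Wnt2, a canonical Wnt of central vein and sinusoidal endothelium, was 11, 5 and 8 reads per 20 M in WT low-fat and 102, 59 and 28 in WT high-fat libraries. In KO mice it was 0, 6 and 13 in low-fat and 59, 41 and 34 in high-fat libraries. Again the fractions did not overlap in either genotype. For KO mouse 1, with no read in the low-fat library, the high-fat level was at least 20.2-fold higher, taken against that library's floor of 3 reads. The fitted log2 fold change, 2.68 ± 0.47 (SE; limma, adjusted p = 0.0077), depends on the pseudocount of 2 for that mouse.

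Wnt9b, the other central vein Wnt, had the fewest reads of the 10 genes. Its values were 2, 6 and 3 in WT low-fat and 15, 14 and 12 in WT high-fat libraries, without overlap, and 4, 1 and 4 in KO low-fat and 11, 8 and 3 in KO high-fat libraries, with overlap. It was higher in the high-fat fraction of 5 of 6 mice, and KO mouse 3 went the other way. It differed by 1.15 log2 units (SE 0.32; adjusted p = 0.0639, limma), past the threshold when KO high-fat replicate 3 was left out (1.33, adjusted p = 0.0356). Its low-fat values, between 1 and 6, lay near the 3-read floor.

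**Figure D1:**
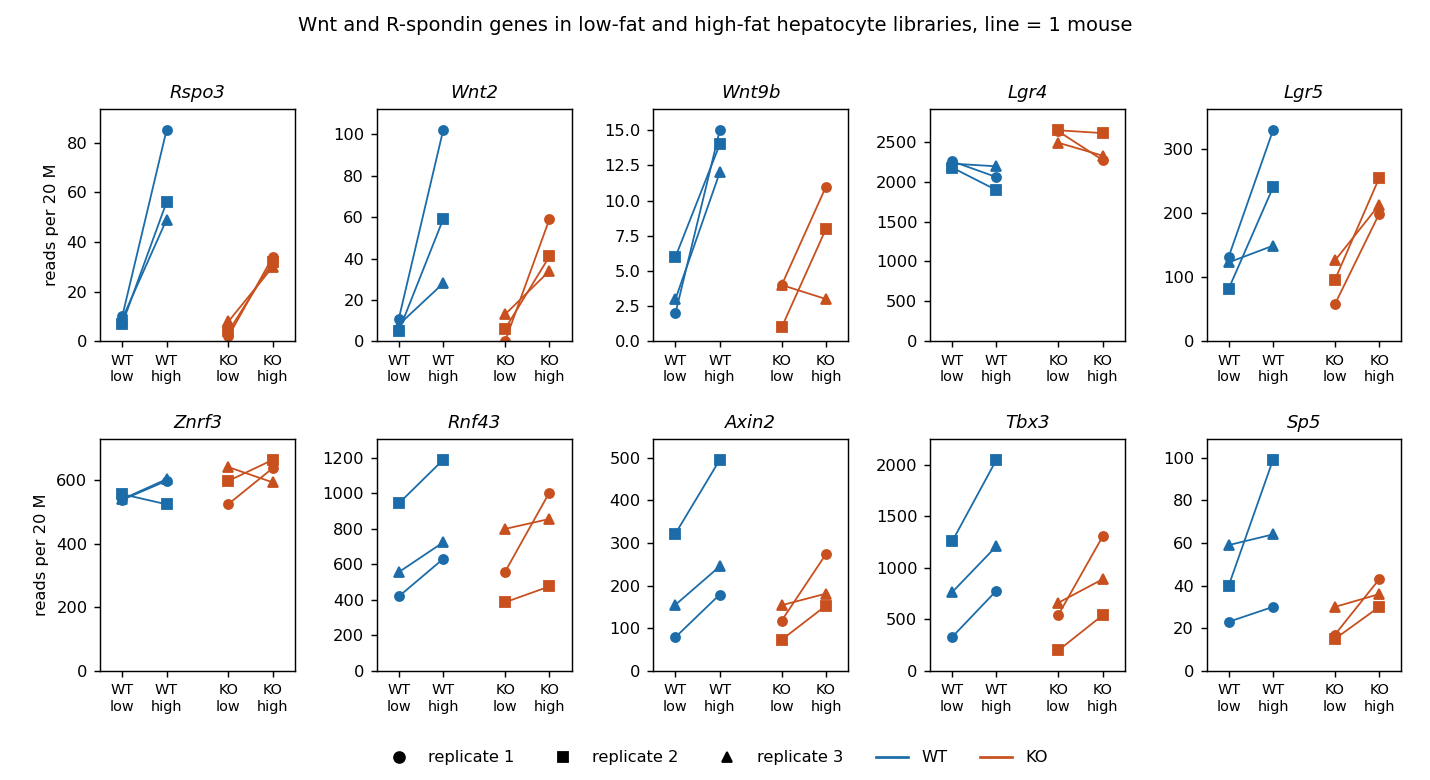
Deposited values (reads per 20 M, linear axes starting at 0) of the 10 genes in the 12 libraries, where each line joins the low-fat and high-fat library of 1 mouse and the marker shape gives the replicate. Rspo3 and Wnt2 lines all climb, Lgr4 lines all fall slightly, and Axin2, Tbx3 and Rnf43 lines climb from very different starting levels.

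Because endothelial markers also rose, each ligand was set against the summed 18 endothelial markers of the same library. Rspo3 was 2.18, 1.68 and 2.13 reads per 1000 endothelial marker reads in WT low-fat and 3.68, 4.87 and 5.53 in WT high-fat libraries. In KO libraries it was 0.99, 1.12 and 2.35 in low-fat and 2.31, 3.75 and 4.22 in high-fat libraries. Rspo3 therefore rose more than the endothelial sum in 6 of 6 mice. Wnt2 did the same in 6 of 6 mice, from 2.40, 1.20 and 1.89 to 4.41, 5.13 and 3.16 in WT and from 0, 1.68 and 3.82 to 4.01, 4.80 and 4.78 in KO mice. Wnt9b did not move in 1 direction: its ratio was between 0.28 and 1.98 in low-fat and between 0.42 and 1.36 in high-fat libraries. Against the 14 summed stellate markers, a ratio added after seeing the data, the fractions were less separated: Rspo3 and Wnt2 were each higher in the high-fat fraction of 4 of 6 mice and Wnt9b of 3 of 6. Rspo3 stood at 9.04 to 17.2 reads per 1000 stellate marker reads in WT low-fat and 13.7 to 18.5 in WT high-fat libraries, and at 5.26 to 9.07 and 7.53 to 8.74 in the KO fractions. Which cells the ligand reads come from was not tested.

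**Figure D2:**
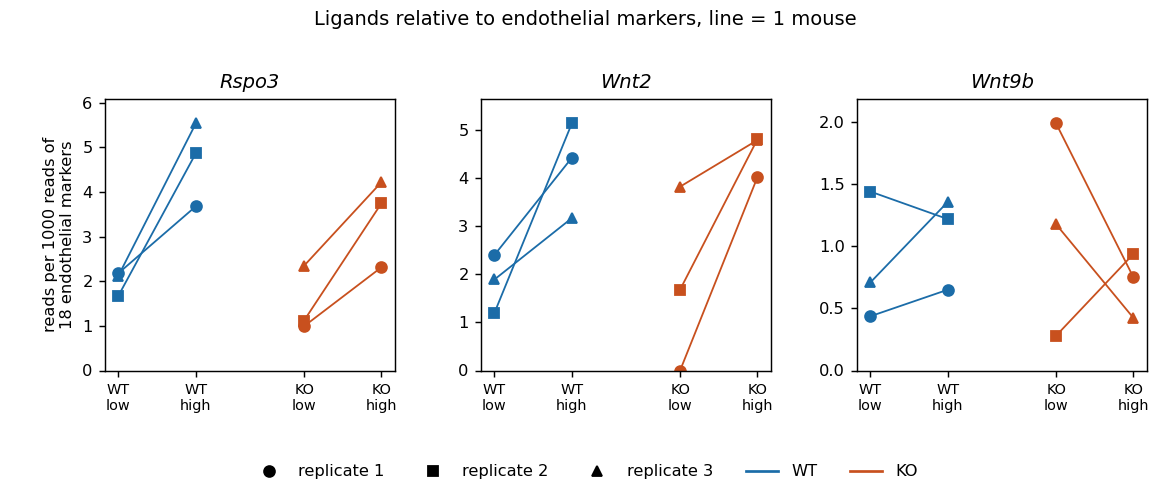
Ligand reads per 1000 reads of the 18 summed endothelial markers in each library, on linear axes starting at 0, with each line joining the 2 fractions of 1 mouse. Rspo3 and Wnt2 lines climb in all 6 mice, whereas Wnt9b lines cross.

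Genes listed here as markers of central vein endothelium, outside the 10 genes, moved unevenly. Whether each of them, Gja5 included, marks central vein endothelium in these livers was not tested. Of 8, 5 rose: Cdh13, a cadherin, by 1.96 on the log2 scale (limma, adjusted p = 0.00302), Kit, a receptor tyrosine kinase, by 2.16 (limma, adjusted p = 0.00758), and Fabp4, Thbd and Vwf. Of all tested genes 5.77% were called. Without mouse 1 of both genotypes 2 of the 8 were called, where 2.16% of tested genes were. Selp, Gja5 and Lhx6 were not called, and Lhx6 differed by -0.64 (adjusted p = 0.329, limma). The summed level of the 8 was between 414 and 686 reads per 20 M in low-fat and between 511 and 1369 in high-fat libraries.

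Among the receptors, Lgr5 rose with the ligands and Lgr4 did not. Lgr5, an R-spondin receptor and beta-catenin target of pericentral hepatocytes, was 132, 82 and 123 reads per 20 M in WT low-fat and 329, 240 and 149 in WT high-fat libraries. In KO mice it was 58, 96 and 126 in low-fat and 199, 255 and 213 in high-fat libraries. The fractions did not overlap in either genotype, although WT mouse 3 differed by 1.21-fold and KO mouse 1 by 3.43-fold. The fitted change was 1.11 log2 units (SE 0.23; adjusted p = 0.0162, limma). Without mouse 1 of both genotypes it was 0.97 and the call was lost (adjusted p = 0.0864). The 14 stellate markers summed to between 227 and 996 reads per 20 M in low-fat and between 3026 and 5688 in high-fat libraries. These sums rose more than Lgr5 in each mouse, so Lgr5 per stellate marker read fell in 6 of 6 mice. That ratio would fall for any gene that rose less than these markers, so it does not show which cells the Lgr5 reads come from. The part of stellate cells in the Lgr5 result was not tested.

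Lgr4, the R-spondin receptor found throughout the lobule, was the most abundant receptor and nearly level. Its values were 2255, 2176 and 2225 in WT low-fat and 2057, 1894 and 2192 in WT high-fat libraries, and 2630, 2643 and 2487 in KO low-fat and 2270, 2608 and 2325 in KO high-fat libraries. The high-fat library was lower in each mouse, by 1.32% to 13.7%, and the groups overlapped. The log2 fold change of -0.17 ± 0.06 (SE) did not pass the test (limma, adjusted p = 0.186).

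The 2 ubiquitin ligases differed from each other. Znrf3 was between 538 and 556 reads per 20 M in WT low-fat and between 524 and 603 in WT high-fat libraries, and between 525 and 641 and between 593 and 664 in the KO fractions. It differed by 0.04 log2 units (SE 0.06; adjusted p = 0.825, limma), higher in 4 of 6 mice. Rnf43 was 419, 943 and 556 in WT low-fat and 630, 1188 and 723 in WT high-fat libraries, and 558, 386 and 799 in KO low-fat and 1004, 475 and 855 in KO high-fat libraries. It was higher in the high-fat fraction of every mouse, 1.07-fold to 1.80-fold, while the groups overlapped widely. The log2 fold change of 0.37 ± 0.27 (SE) did not pass without regard to mouse (limma, adjusted p = 0.516). With each mouse as a block, the SE was 0.08 and Rnf43 passed (limma, adjusted p = 0.0214).

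The targets Axin2 and Tbx3 rose once each mouse was compared with itself, and Sp5 did not pass. Axin2 was 79, 322 and 155 reads per 20 M in WT low-fat and 179, 495 and 245 in WT high-fat libraries, and 118 and 73 in KO low-fat replicates 1 and 2 (mean of the 3, 115 ± 40.6, SD) and 274, 153 and 181 in KO high-fat libraries. The WT mouse 2 low-fat library thus exceeded 5 of the 6 high-fat libraries. Within a mouse, Axin2 was 1.18-fold to 2.32-fold higher in the high-fat fraction. It differed by 0.77 log2 units (SE 0.35; adjusted p = 0.271, limma), and with the mouse block it passed (SE 0.13; limma, adjusted p = 0.0101).

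Tbx3 was 327, 1254 and 762 reads per 20 M in WT low-fat and 777, 2046 and 1208 in WT high-fat libraries. In KO mice it was 542, 198 and 660 in low-fat and 1303, 539 and 888 in high-fat libraries. Each mouse was higher in its high-fat fraction, 1.35-fold to 2.72-fold, and the groups overlapped. The log2 fold change of 0.90 ± 0.40 (SE) had an adjusted p of 0.261 in limma, and with the mouse block an adjusted p of 0.00629 (SE 0.13).

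Sp5, whose upstream window holds the 4 matches shown above, was 23, 40 and 59 in WT low-fat and 30, 99 and 64 in WT high-fat libraries, and 17, 15 and 30 in KO low-fat and 43, 30 and 36 in KO high-fat libraries. The differences within mice ran from 1.09-fold to 2.53-fold in deposited values. After scaling, WT mouse 3 differed by only 0.006 log2 units, so its place among the 6 of 6 mice is marginal. The fitted change was 0.64 log2 units (SE 0.32; adjusted p = 0.325, limma), and it did not pass with the mouse block either (limma, adjusted p = 0.0933). Axin2, without a match in its window, and Sp5 were both higher in 6 of 6 mice.

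With the mouse block, 6 of the 10 genes were called (Rspo3, Wnt2, Lgr5, Rnf43, Axin2 and Tbx3), where 11% of all tested genes were. Without mouse 1 of both genotypes, Rspo3 and Wnt2 remained called, where 2.16% of tested genes were.

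**Figure D3:**
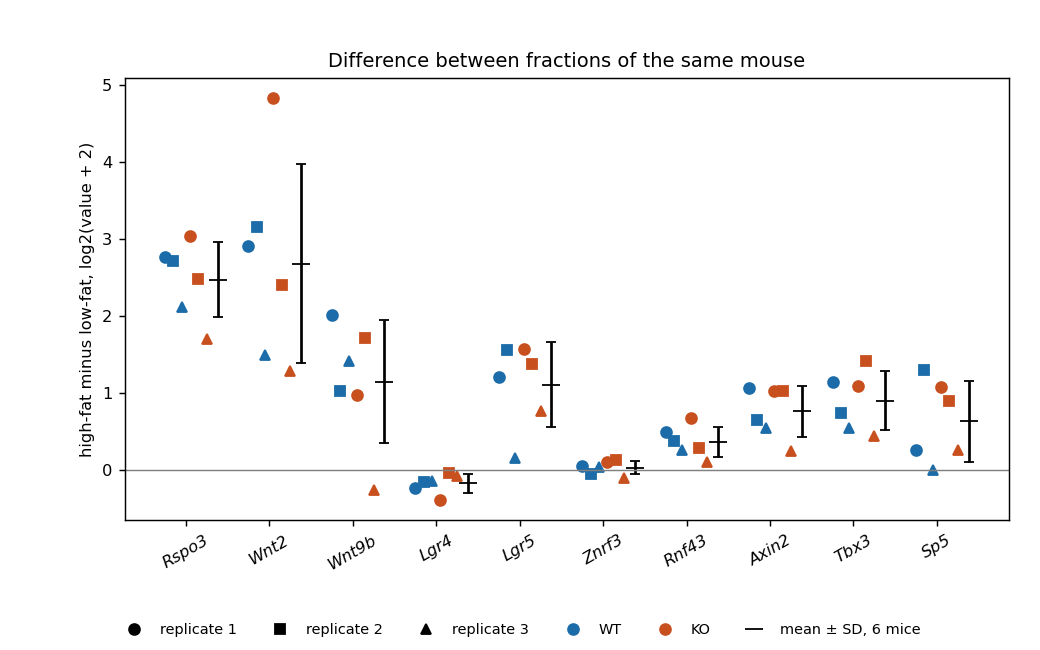
Difference between the high-fat and low-fat library of each mouse, on the log2(value + 2) scale, for the 10 genes, with the mean ± SD of 6 mice. Rspo3 and Wnt2 sit highest and are spread widely, Rnf43, Axin2 and Tbx3 are positive in each mouse, and Znrf3 and Lgr4 lie near 0.

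Within single genotypes fewer genes passed. In KO mice 1 of the 10 was called, Rspo3 (2.41 log2 units, SE 0.35; adjusted p = 0.034, limma), where 0.839% of tested genes were. That call was lost in the fit of the 6 KO libraries alone (adjusted p = 0.082), without mouse 1 of both genotypes (adjusted p = 0.114), and on leaving out WT high-fat replicate 2, KO low-fat replicate 1 or 2, or any 1 KO high-fat replicate (adjusted p up to 0.18). With the mouse block Tbx3 was called as well (0.99; limma, adjusted p = 0.042), where 1.7% of tested genes were. In WT mice limma called 0 of the 10 genes and 0% of all tested genes, with 4 of the 10 (Rspo3, Wnt2, Wnt9b and Lgr5) at an unadjusted p under 0.05, where 11.2% of tested genes were. In WT mice Rspo3 was 2.54 log2 units higher (SE 0.35; adjusted p = 0.0716, limma). Leaving out KO low-fat replicate 1, which enters through the shared estimate of spread, put Rspo3 and Wnt2 past the threshold (adjusted p = 0.0263 and 0.0416). Libraries of the 2 fractions did not overlap for 4 of the 10 genes in WT (Rspo3, Wnt2, Wnt9b and Lgr5), where 10.4% of tested genes were higher without overlap and 13.9% differed without overlap in either direction. They did not overlap for 3 of the 10 in KO mice (Rspo3, Wnt2 and Lgr5), where 8.54% were higher and 11.2% differed in either direction. Exact permutation p was 0.1 for each of these, the smallest that 3 against 3 libraries allow. For Rspo3, Wnt2 and Wnt9b, which passed the filter through their high-fat libraries, the lack of overlap is partly set by the filter.

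Of the 23 other Wnt and R-spondin ligand and secretion genes, 8 passed the filter, 3 rose and 0 fell between the fractions, averaged over both genotypes (median 0.27). Of all tested genes 5.77% were called, 5.05% upward. Wls, which carries Wnt proteins to the cell surface, was 20 reads per 20 M in each WT low-fat and 116, 50 and 37 in the WT high-fat libraries, a difference of 1.71 log2 units (SE 0.30; adjusted p = 0.00844, limma). Notum, a secreted Wnt deacylase that is itself a beta-catenin target in pericentral hepatocytes, rose in 6 of 6 mice. Its values were 435, 707 and 555 in WT low-fat and 897, 973 and 752 in WT high-fat libraries, and 454, 504 and 566 in KO low-fat and 1086, 998 and 841 in KO high-fat libraries. The fractions did not overlap in either genotype, and the fitted change was 0.74 log2 units (SE 0.11; adjusted p = 0.0037, limma). Wnt4, with a mean of 9 reads per 20 M, rose by 1.23 on the log2 scale (limma, adjusted p = 0.0364), a call lost without the filter on low values (adjusted p = 0.0616), without mouse 1 of both genotypes (0.16) and on leaving out any 1 of 9 libraries (0.061 to 0.0885).

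Of 30 Wnt receptor and secreted inhibitor genes, 14 passed the filter and 1 rose (median 0.05), where 5.77% of all tested genes were called. It was Frzb, a secreted Wnt-binding protein, with 0 or 1 read per 20 M in each low-fat and 5 to 15 in each high-fat library (limma, adjusted p = 0.00391). Frzb passed the filter only through high-fat libraries, so its rise is not independent of the filter. Without mouse 1 of both genotypes Frzb was not called (adjusted p = 0.0859). The co-receptors Lrp5 (0.02) and Lrp6 (-0.15) and the frizzled receptors were not called.

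Of 31 genes of the beta-catenin cascade, 28 passed the filter, 2 rose and 1 fell (median -0.03), where 5.77% of all tested genes were called. Nkd1, a feedback inhibitor that binds Dishevelled, was 38, 33 and 31 in WT low-fat and 111, 99 and 44 in WT high-fat libraries, and 14, 9 and 22 in KO low-fat and 58, 45 and 48 in KO high-fat libraries. The fractions did not overlap within a genotype, and the fitted change was 1.38 log2 units (SE 0.25; adjusted p = 0.0096, limma), with the call lost without mouse 1 of both genotypes (adjusted p = 0.149). Tcf7, a TCF/LEF factor, rose by 0.50 (limma, adjusted p = 0.0303), a call lost without the filter on low values (adjusted p = 0.0775), without mouse 1 of both genotypes (0.303) and on leaving out any 1 of 8 libraries (0.0541 to 0.0817). Ctnnbip1, which binds beta-catenin and blocks its contact with TCF factors, fell by 0.83 on the log2 scale (limma, adjusted p = 0.00285). It was 783, 684 and 516 reads per 20 M in WT low-fat against 391, 357 and 397 in WT high-fat libraries, and 729, 582 and 626 against 368, 385 and 368 in KO mice. Ctnnb1, the beta-catenin gene, differed by -0.11 (adjusted p = 0.432, limma).

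The zonated hepatocyte genes shifted as lists. Of 25 pericentral genes tested, 8 rose and 0 fell, and all 25 had positive log2 fold changes (median 0.72). In the high-fat fraction of 6 of 6 mice 22 were higher, where 9.96% of tested genes were. Cyp2c29, a cytochrome P450, rose by 1.10 (limma, adjusted p = 0.043), Aldh3a2, a fatty aldehyde dehydrogenase, by 0.99 (limma, adjusted p = 0.0134) and Gulo, the last enzyme of ascorbate synthesis, by 0.82 (limma, adjusted p = 0.0179). Of 19 periportal genes, 6 fell and 0 rose, all 19 had negative values (median -0.53), and 18 were lower in 6 of 6 mice, where 11.6% of tested genes were. Etnppl, which breaks down phosphoethanolamine, fell by 0.77 (limma, adjusted p = 0.0123), Hal, the histidine ammonia-lyase, by 0.71 (limma, adjusted p = 0.00534) and Gls2, the liver glutaminase, by 0.68 (limma, adjusted p = 0.00387). With the mouse block 20 pericentral genes rose and 12 periportal genes fell, where 11% of all tested genes were called. Without mouse 1 of both genotypes 4 rose and 3 fell, where 2.16% of tested genes were called. The median over all tested genes was -0.02, and 5.77% of them were called in the main fit, 5.05% upward. Of the genes named here, Cyp2c29 lost its call on leaving out WT low-fat replicate 1 or 2, KO low-fat replicate 1 or 2, or replicate 2 or 3 of either high-fat group (adjusted p up to 0.105), and Gulo, Etnppl and Gls2 lost theirs without mouse 1 of both genotypes (adjusted p = 0.184, 0.156 and 0.0573).

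**Figure D4:**
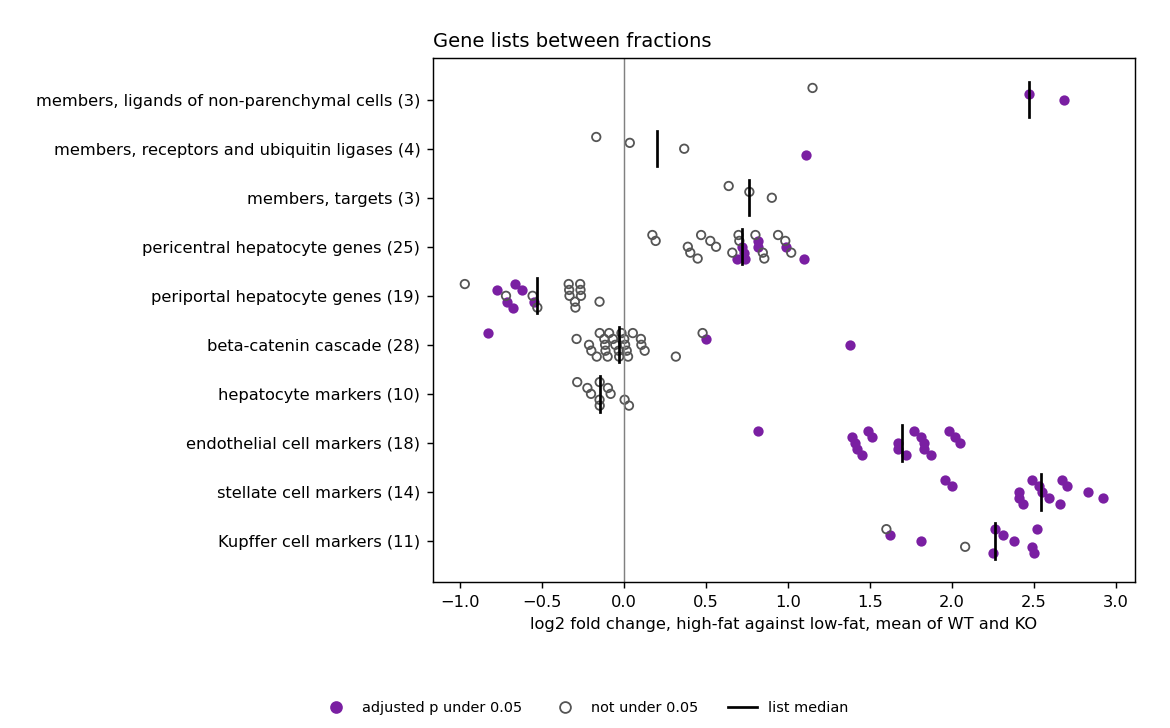
Log2 fold change of each tested gene between the high-fat and low-fat fraction, averaged over WT and KO, by gene list (number of genes in brackets), with filled points for adjusted p under 0.05 and a bar at each list's median. The ligands sit among the endothelial, stellate and Kupffer markers, and the targets sit among the pericentral hepatocyte genes.

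Between genotypes no call was made for any of the 10 genes in either fraction (limma, adjusted p = 1 for each). Ptprk was the only gene called, 0.00604% of those tested, in each fraction. At an unadjusted p under 0.05 stood 2 of the 10 in each fraction, Rspo3 and Lgr4, against 1.72% of tested genes in low-fat and 2.02% in high-fat libraries. The 2 fraction comparisons and the 2 genotype comparisons share libraries, so each is given with its own values.

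Rspo3 was lower in KO than in WT high-fat libraries without overlap, 32 ± 2 against 63.3 ± 19.1 reads per 20 M (SD, n = 3 each; exact permutation p = 0.1). Its log2 fold change was -0.90 ± 0.35 (SE) in high-fat and -0.77 ± 0.35 in low-fat libraries, where the genotypes overlapped. Wnt9b in high-fat libraries, 7.33 ± 4.04 in KO against 13.7 ± 1.53 in WT mice, also did not overlap (log2 fold change -0.85 ± 0.46, SE). Wnt9b passed the filter only through high-fat libraries, mostly those of WT mice. All 18 endothelial markers had negative values in KO against WT as well, with medians of -0.67 in low-fat and -0.46 in high-fat libraries and 0 of 18 called. Relative to 1000 endothelial marker reads, Rspo3 in high-fat libraries was 3.43 ± 0.99 in KO and 4.69 ± 0.94 in WT mice, and these values overlapped. Relative to 1000 stellate marker reads it was 7.53 to 8.74 in KO and 13.7 to 18.5 in WT high-fat libraries, without overlap. Rspo3 lies near the targeted gene on chromosome 10 (GRCm38), with Ptprk at 28074820 to 28597397 and Rspo3 at 29452416 to 29535867. Whether this position bears on the Rspo3 difference between genotypes was not tested.

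Lgr4 was higher in KO without overlap in both fractions, 2587 ± 86.6 against 2219 ± 39.9 in low-fat and 2401 ± 181 against 2048 ± 149 in high-fat libraries (SD, n = 3 each; exact permutation p = 0.1 in each). The log2 fold changes were 0.23 ± 0.09 (SE) and 0.24 ± 0.09. In low-fat libraries Lgr4 was the 1 gene of 10 without overlap, where 4.97% of tested genes had none. In high-fat libraries 3 of 10 had none (Rspo3, Wnt9b and Lgr4), where 4.51% of tested genes had none.

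The 3 targets had lower means in KO mice, with overlap in each fraction. Sp5 had log2 fold changes of -0.87 ± 0.45 (SE) in low-fat and -0.65 ± 0.45 in high-fat libraries, Tbx3 -0.70 ± 0.57 and -0.54 ± 0.57, and Axin2 -0.51 ± 0.49 and -0.50 ± 0.49. Each of these 6 estimates lay within 2 SE of 0. The KO against WT differences of Wnt2, Rnf43, Wnt9b (low-fat) and Lgr5 (high-fat) changed sign when single libraries were left out, and Znrf3 stood at 0.11 ± 0.09 and 0.14 ± 0.09.

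The interaction of genotype and fraction, the difference of the fraction effect between KO and WT mice, was called for 0 of the 10 genes and 0% of tested genes (limma, adjusted p = 1 for each of the 10), and 0 of the 10 were at an unadjusted p under 0.05, where 0.145% of tested genes were. The estimates were -0.13 ± 0.49 (SE) for Rspo3, 0.32 ± 0.93 for Wnt2 and 0.26 ± 0.46 for Lgr5. For Tbx3 it was 0.17 ± 0.81. With the mouse block the SE fell to 0.25 for Tbx3 and Axin2 and to 0.15 for Rnf43, and stayed at 0.47 for Rspo3 and 0.90 for Wnt2.

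Between mice, the targets varied more than most genes. The SD over the 6 mice of the mean log2 level of both fractions was 0.79 for Tbx3, larger than for 97.4% of tested genes, 0.67 for Axin2 (95.0%) and 0.64 for Sp5 (94.1%), against a median of 0.18 over all tested genes. Rnf43 stood at 0.48 (85.8%). Znrf3, at 0.10 (19.0%), and Lgr4, at 0.14 (38.9%), varied little. WT mouse 2 had the highest Axin2, Tbx3 and Rnf43 of the 6 mice, and KO mouse 2 the lowest. Nuclear-retained RNAs of these 2 mice were the 2 highest of the low-fat libraries, at 115322 and 134472 reads per 20 M. In the high-fat libraries they stood at 115903 for WT mouse 2 and at 37266, the lowest of the 6, for KO mouse 2.

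Across the 12 libraries most, but not all, of the 10 genes fell into 2 sets by correlation of their log2 levels. Libraries share mice and fractions, so the values are a description over 12 points from 6 mice. Axin2 and Tbx3 had a Pearson's r of 0.97, Tbx3 and Rnf43 of 0.91, Axin2 and Rnf43 of 0.90, and Sp5 and Tbx3 of 0.85. Rspo3 and Wnt2 had an r of 0.95, and Lgr5 followed the ligands (0.96 with Wnt2, 0.91 with Rspo3) more than the targets (0.32 with Axin2 and with Tbx3). Wnt9b was similar to both sets (0.79 with Rspo3, 0.75 with Axin2), and Lgr4 was negative with each ligand and target (-0.65 with Wnt2 to -0.72 with Wnt9b). Znrf3 was in neither set (0.08 with Rspo3, -0.28 with Axin2).

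**Figure D5:**
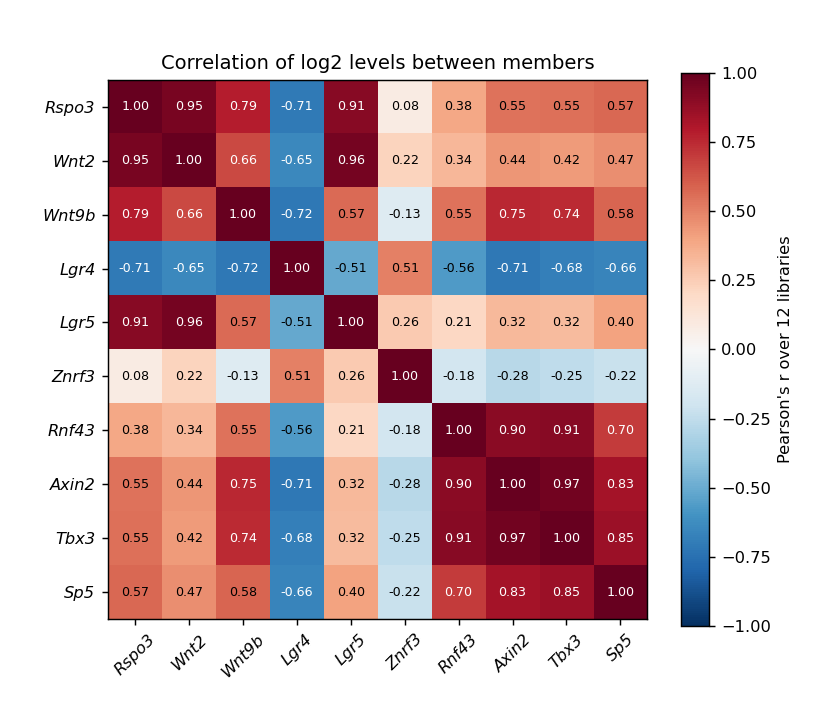
Pearson's r of log2 levels between the 10 genes over the 12 libraries, from -1 (blue) to 1 (red). One block of high values joins Rspo3, Wnt2 and Lgr5 and another joins Rnf43, Axin2, Tbx3 and Sp5, while Znrf3 is near 0 with most genes.

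For each gene, the 5 genes with the highest r over the 12 libraries were taken as most like it, among genes averaging 100 or more reads per 20 M. For Rspo3 these were Igfbp7 (0.98), Colec10, Calcrl, Cd300lg and Clec14a, and for Wnt2 they were Dchs1 (0.98), F8, Sh3tc1, Colec10 and Kdr. For Lgr5 they were Sparc (0.96), Tgfbr3, Colec11, Emilin1 and Itga1. Kdr is one of the 18 endothelial markers and Colec11 one of the 14 stellate markers. Tbx3 and Axin2 shared Ptpn9 (0.94 and 0.90), Crybg3 and Dcaf17. Rnf43 was most like Plcg1 (0.93), Sp5 most like AC160029.1 (0.91), Atr and Oat, Lgr4 most like Igfbp4 (0.96), Znrf3 most like Nt5c3 (0.92) and Wnt9b most like Aatk (0.89).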

How the data were processed

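RNA-seq of 12 hepatocyte libraries from 6 mice was analysed. The deposited values are scores: gene read counts that the authors scaled to 20 M (20000000) per library and rounded up, as the values themselves show. The genome build was mm9, per the submitters' processing notes; aligner, counter, strand setting and annotation are not given in the sources used here. Of the gene identifiers, 99.6% were found in GENCODE M21 (GRCm38), used for exon lengths and overlaps.

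Depth was estimated from the spacing of low values (error up to 0.0835% on simulated data with 30472 genes). Because the values are not raw counts, log2(value + 2) after TMM scaling was fitted with limma 3.58.1 in R 4.3.3 (4 group means, intensity trend), with Benjamini-Hochberg adjustment over 16563 genes, called under 0.05. Of genes simulated with a log2 change of 1 in the average over both genotypes, 71% were recovered. Fractions of a mouse are paired by the labels: same-mouse residuals correlated at 0.469 to 0.582 in WT and -0.009 to 0.46 in KO mice. Alternatives were the mouse or replicate block, pseudocounts of 0.5 and 10, the deposited scaling alone, no filter, only the 6 libraries compared, and leaving out each library. Leaving out mouse 1 of both genotypes was added after seeing the data. The 10 genes and all lists were chosen with earlier results of these data known. All 10 genes are named, and at most the 3 largest rises and falls among called genes of a list. The exception is the central vein endothelial list, where every called marker is named. Ctnnb1, Lrp5, Lrp6, Selp, Gja5, Lhx6 and others not called were named after their values were seen. Immediate early genes, a list of cell isolation, summed to between 2565 and 14360 reads per 20 M, with 0 of 7 tested genes called.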

Additional observations from a re-analysis of the deposited data

How the results depend on the processing

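Rspo3, Wnt2 and Lgr5 kept their direction, and Rspo3 and Wnt2 their call, in the average over both genotypes under each alternative run; Lgr5 lost its call without mouse 1 of both genotypes. In that comparison the replicate block, with the mouse as block, raised the genes called from 956 to 1817 and the genes called of the 10 from 3 to 6; without mouse 1 the genes called were 357, and leaving out each library gave 604 to 1103. In KO mice the 139 genes called became 282 with the replicate block, 82 without the filter and 0 in the fit of only 6 libraries or without mouse 1, and from 0 to 301 on leaving out each library; of the 10 genes, 1 became 2 with the replicate block, 0 in the fit of only 6 libraries or without mouse 1, and 0 to 1 on leaving out each library. In WT mice the 0 genes called became 1 with a pseudocount of 10 (1 of the 10 genes, Rspo3), and 0 to 130 (0 to 2 of the 10) on leaving out each library. Between genotypes the 1 gene called became 0 without mouse 1 in both fractions, and in high-fat libraries 0 in the fit of only 6 libraries and 0 to 1 on leaving out each library; the replicate block changed no call there. The cause was not tested.

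Signs changed for values that passed no test. Without mouse 1, KO against WT was 0.38 for Wnt2 and 0.12 for Lgr5 in low-fat and 0.325 for Lgr5 in high-fat libraries, and the interaction was -0.475 for Wnt2 and -0.0735 for Sp5. The interaction was 0.0564 for Rspo3 with a pseudocount of 0.5 and -0.088 for Wnt2 with a pseudocount of 10. Leaving out each library gave, in KO against WT low-fat libraries, -1.30 to 0.17 for Wnt2, -0.40 to 0.17 for Wnt9b and -0.38 to 0.17 for Rnf43. In high-fat libraries it gave -0.796 to 0.0777 for Wnt2, -0.33 to 0.21 for Lgr5 and -0.33 to 0.19 for Rnf43. For Znrf3 between fractions the values were -0.02 to 0.0752 (WT) and -0.00986 to 0.12 (KO). The interaction ranged from -0.44 to 0.22 for Rspo3, -0.50 to 0.97 for Wnt2, -0.053 to 0.086 for Lgr4, -0.0371 to 0.51 for Lgr5, -0.0314 to 0.0983 for Znrf3, -0.31 to 0.30 for Rnf43, -0.46 to 0.51 for Axin2, -0.38 to 0.69 for Tbx3 and -0.24 to 0.61 for Sp5. With the replicate number as a block, same-numbered KO and WT libraries correlated at -0.171 to 0.49, and they are different mice. Depth limits Wnt9b, Frzb and the low-fat values of Rspo3 and Wnt2, which lie near the 3-read floor.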
